A study of Mus musculus with 4 samples.

Results

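The mRNAs of 30 genes for the synthesis, regulation, uptake, transport, export and storage of cholesterol were followed in ID4-EGFP+ cells of the neonatal mouse testis. The members were the rows of the count files whose gene symbol was on a list of 18 sterol synthesis enzymes, 5 SREBP regulators, 4 genes for uptake or transport within the cell and 3 genes for export or esterification. All 30 were found among the 54920 genes listed, and all 30 were among the 23952 genes that passed the expression filter and were tested. ID4 is an inhibitor of DNA binding that marks spermatogonial stem cells, and the cells were sorted by the green fluorescence of an Id4-eGfp allele from testes at postnatal day 8. Both groups carried Cnot3 flox/flox and Id4-eGfp and had been given 4OHT, the active form of tamoxifen, from day 1 to day 3 after birth. The Cnot3-cKO mice also carried Ddx4-creER, a Cre that the germ cell gene *Ddx4* drives and 4OHT switches on. The control mice had no Cre, and their samples are labelled wild-type although the design text gives them the floxed alleles. Total RNA of 2 control and 2 *Cnot3*-cKO samples was sequenced, and each value is the authors' number of reads per gene. The study describes the replicates of this experiment as biological and gives a larger number of them than was analysed here. The labels do not say whether the samples of a group came from separate animals, so p-values measure only the spread between these samples, which may be technical.

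Cholesterol is built from acetyl-CoA. HMG-CoA and mevalonate are made first, then isoprenoid units, which are joined to squalene. Squalene is closed to lanosterol, the first sterol, and lanosterol is trimmed and reduced to cholesterol. When membranes are short of sterol, SCAP carries the transcription factors SREBP1 and SREBP2 from the endoplasmic reticulum to the Golgi, where they are cut and released to switch on these enzymes. INSIG proteins hold SCAP back when sterol is plentiful. Cells also take cholesterol from lipoproteins, send it out through ABC transporters and store it as esters. In the testis, cholesterol is the precursor of androgens in Leydig cells, and late intermediates of its synthesis are known as meiosis-activating sterols.

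*Srebf2*, *Dhcr7* and *Stard4* fell in *Cnot3*-cKO cells, and *Soat1*, *Fdft1* and *Ebp* rose. These 6 passed an adjusted p of 0.01 in edgeR's quasi-likelihood test, and the other 24 did not. The changes were small. *Srebf2*, *Dhcr7* and *Stard4* stood at 61.6%, 60.0% and 72.7% of the control level, *Fdft1* at 149% and *Soat1* at 172%, and only *Ebp*, at 212%, changed more than 2-fold. Over all tested genes, 6.21% passed the adjusted p as higher, 4.70% as lower and 10.9% in either direction. The 3 higher and 3 lower of 30 members are to be read against these shares. With the 2-fold limit added, 4.03% of all tested genes were called higher and 0.735% lower. Of the members, 1 was called higher and 0 lower, by edgeR and by DESeq2, and the lowest log2 fold change of a member was -0.74. At an unadjusted p under 0.05, without the fold limit, 5 members were higher and 9 lower, beside 17.4% and 15.4% of all tested genes. The counts past the adjusted p moved with single libraries, over all genes as well as over the members. Without control replicate 1, 4 members were higher and 9 lower, beside 8.08% and 9.13% of the 25036 genes then tested. Without control replicate 2, 5 were higher and 3 lower, beside 7.20% and 7.01% of 25238. Without *Cnot3*-cKO replicate 1, 3 were higher and 2 lower, beside 5.20% and 3.10% of 26120. Without *Cnot3*-cKO replicate 2, 2 were higher and 2 lower, beside 5.43% and 3.04% of 26066.

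Across the 30 members, log2 fold changes ran from -0.74 to 1.09 with a median of -0.17, beside a median of 0.01 over all tested genes. There were 11 members above 0 and 19 below, beside 12165 and 11787 of all tested genes. The *Cnot3*-cKO pair exceeded the control pair without overlap in 8 members and was exceeded by it in 13, and the groups overlapped in 9. The same held for 30.5% (above) and 28.6% (below) of all tested genes. Together the members took 0.311% and 0.296% of the reads in the controls and 0.303% and 0.314% in the *Cnot3*-cKO libraries, so the groups overlapped in the total.

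The libraries were of unequal depth. The controls held 40957899 and 43378493 reads and the *Cnot3*-cKO libraries 22192964 and 28019626. Levels are given as CPM, reads per 1000000 on library sizes scaled by edgeR's TMM method. *Cnot3* itself was read in every library at 58.6 and 50.2 CPM in controls and 19.2 and 19.9 CPM in *Cnot3*-cKO cells (log2 fold change -1.48, standard error 0.13, edgeR adjusted p = 1.48e-05). The germ cell gene *Ddx4* was at 726 and 703 CPM in controls and 754 and 720 CPM in *Cnot3*-cKO cells. Genes of somatic cells were also present, and 13 of 14 Sertoli cell markers, 5 of 5 tested Leydig cell markers and 9 of 9 macrophage markers passed as higher in *Cnot3*-cKO cells. With 2 libraries against 2, the smallest two-sided p of an exact permutation test is 0.333, and each adjusted p therefore rests on a spread fitted over all genes. In bulk RNA, fewer cells of a type and less RNA per cell cannot be told apart.

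**Figure D1:**
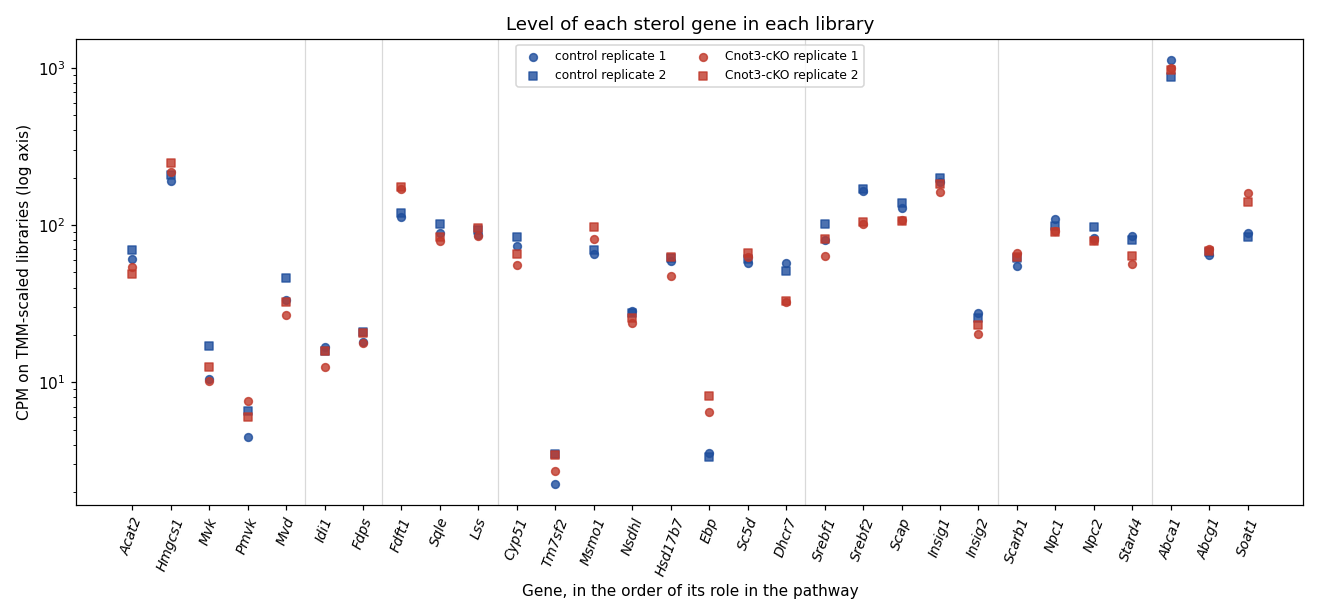
Level of each of the 30 sterol genes in each library, in CPM on TMM-scaled library sizes (log axis), with genes in the order of their roles and grey lines between role groups. Blue points are the 2 control libraries and red points the 2 Cnot3-cKO libraries; the 6 genes past an adjusted p of 0.01 (*Fdft1*, *Ebp*, *Dhcr7*, *Srebf2*, *Stard4* and *Soat1*) show both red points clear of both blue points.

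Upstream sequence of 5 members is shown here because SREBP2 acts on sterol genes through the DNA before them, together with NF-Y, which binds the CCAAT box. *Srebf2*, *Dhcr7*, *Ebp* and *Soat1* are 4 of the 6 members that passed the test. Of the 23 members with a sequence window, only *Hmgcs1* held the exact letters searched as the sterol response element. Each line gives the 200 bases before a RefSeq transcript start (GRCm38.p6), 5′ to 3′ on the gene's strand, from *Srebf2* at chr15:82147069-82147268 (forward), *Dhcr7* at chr7:143822967-143823166 (forward), *Ebp* at chrX:8193513-8193712 (reverse), *Soat1* at chr1:156474329-156474528 (reverse) and *Hmgcs1* at chr13:119690151-119690350 (forward). Capitals mark the CCAAT box, which reads ATTGG where it lies on the other strand, and in *Hmgcs1* also the sterol response element TCACCCCAC.
Srebf2: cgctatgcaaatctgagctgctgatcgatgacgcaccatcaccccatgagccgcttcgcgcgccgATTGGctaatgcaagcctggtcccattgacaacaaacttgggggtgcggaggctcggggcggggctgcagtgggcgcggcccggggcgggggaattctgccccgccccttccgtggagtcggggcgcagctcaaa
Dhcr7: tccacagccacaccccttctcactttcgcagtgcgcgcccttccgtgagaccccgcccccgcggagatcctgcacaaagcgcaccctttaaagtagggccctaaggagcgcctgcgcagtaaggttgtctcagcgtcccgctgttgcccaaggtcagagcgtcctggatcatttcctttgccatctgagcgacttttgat
Ebp: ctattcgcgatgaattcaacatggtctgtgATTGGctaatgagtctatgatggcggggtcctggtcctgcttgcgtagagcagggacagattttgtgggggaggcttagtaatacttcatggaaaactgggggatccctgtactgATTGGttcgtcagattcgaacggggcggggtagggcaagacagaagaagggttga
Soat1: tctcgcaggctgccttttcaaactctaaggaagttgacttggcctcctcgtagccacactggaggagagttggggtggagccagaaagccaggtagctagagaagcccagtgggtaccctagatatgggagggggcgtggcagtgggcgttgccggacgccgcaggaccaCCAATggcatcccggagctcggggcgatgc
Hmgcs1: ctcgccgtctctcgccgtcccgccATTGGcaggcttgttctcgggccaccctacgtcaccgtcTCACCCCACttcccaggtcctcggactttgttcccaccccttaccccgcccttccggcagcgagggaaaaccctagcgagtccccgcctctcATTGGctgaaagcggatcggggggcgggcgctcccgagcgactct

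RefSeq windows from 250 bases before to 50 bases after a start were at hand for 23 of the 30 members. *Fdft1*, *Sqle*, *Fdps*, *Stard4*, *Npc1*, *Abcg1* and *Scarb1* had none and were not searched. Both strands were searched, and a gene counted when any of its windows held the letters. CCAAT was found in 20 of the 23 members (87.0%) and in 42.5% of the 13955 tested genes that had a window. The Sp1 box GGGCGG was found in 22 of 23 (95.7%), against 60.9% of tested genes. The sterol response element TCACCCCAC was found in 1 of 23, against 0.638% of tested genes. A site that differs from these letters was not counted. The E-box ATCACGTGA, another sequence that SREBPs bind, was found in none of the members and in 0.552% of tested genes. The CCAAT box was thus shared by members that rose, fell or did not pass the test. *Dhcr7* counted through a match outside the 200 bases printed here, which hold no CCAAT box. That match lies in the rest of the same window or at another of its transcript starts. Such matches are letters in a window and not measured binding.

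The regulators came out lowest of the 7 role groups, with a median log2 fold change of -0.31 and all 5 below 0, of which 1 passed the test. All 5 stayed below 0 under the 15 alternatives of processing. Without control replicate 1 the 5 enzymes from acetyl-CoA to mevalonate had the lower median, -0.45 against -0.38. *Srebf2*, on chromosome 15 from 82147181 to 82205379 (forward strand, GRCm38), encodes SREBP2, the main activator of cholesterol synthesis. It was at 165 and 168 CPM in controls and at 101 and 104 CPM in *Cnot3*-cKO cells. Both *Cnot3*-cKO libraries lay far below both controls, with replicates close together. The log2 fold change was -0.70 (standard error 0.09, 95% interval -0.89 to -0.51, edgeR adjusted p = 1.69e-04). Among the reads of the 30 members, a share that no scaling factor enters, *Srebf2* took 5.23% and 5.51% in controls, against 3.41% and 3.39% in *Cnot3*-cKO cells.

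*Srebf1*, which encodes SREBP1 and acts more on fatty acid genes, was at 80.6 and 101 CPM in controls and at 64.0 and 81.4 CPM in *Cnot3*-cKO cells. The groups overlapped, since the higher *Cnot3*-cKO library was just above the lower control, and the log2 fold change of -0.32 (95% interval -0.61 to -0.03) did not pass (edgeR adjusted p = 0.115). Without control replicate 1, the edgeR adjusted p for *Srebf1* was 6.40e-05 at a log2 fold change of -0.49. It did not pass without control replicate 2 (-0.16, edgeR adjusted p = 0.386), without *Cnot3*-cKO replicate 1 (-0.17, edgeR adjusted p = 0.568) or without *Cnot3*-cKO replicate 2 (-0.51, edgeR adjusted p = 0.0174). *Scap*, the escort of the SREBPs, was at 128 and 138 CPM in controls and at 108 and 107 CPM in *Cnot3*-cKO cells. Its groups did not overlap, but the log2 fold change of -0.31 gave an edgeR adjusted p of 0.0266. Without control replicate 1, *Scap* passed as lower (-0.38, edgeR adjusted p = 6.26e-04), and without each of the other libraries it did not (edgeR adjusted p from 0.0357 to 0.167).

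*Insig1* and *Insig2* encode the proteins that retain SCAP. *Insig1*, itself a classical SREBP target, was at 187 and 199 CPM in controls and at 162 and 183 CPM in *Cnot3*-cKO cells (log2 fold change -0.16, edgeR adjusted p = 0.243). *Insig2* was at 27.5 and 25.7 CPM in controls and at 20.3 and 23.1 CPM in *Cnot3*-cKO cells (log2 fold change -0.29, edgeR adjusted p = 0.168). For both genes the *Cnot3*-cKO libraries were the lower ones, by less than the test required. Summed over the 5 regulators, the level was 588 and 632 CPM in controls and 455 and 498 CPM in *Cnot3*-cKO cells.

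**Figure D2:**
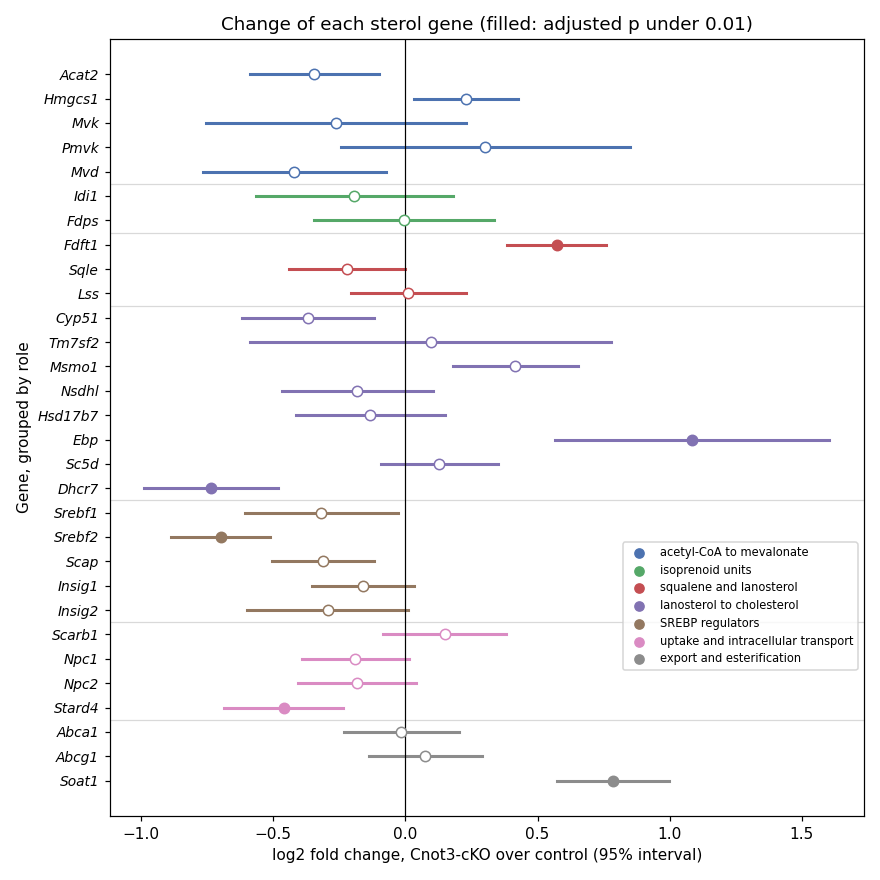
Log2 fold change of each of the 30 sterol genes, Cnot3-cKO over control, with its 95% interval from edgeR and the role groups in colours. Filled points passed an adjusted p of 0.01, and the SREBP regulators (brown) are all below 0, with *Srebf2* lowest at -0.70.

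The enzymes of synthesis showed no common direction. Of the 18, *Fdft1* and *Ebp* rose, *Dhcr7* fell and 15 did not pass. Their median log2 fold change was -0.07, a value that turned to 0.07 when libraries were scaled to germ cell genes. Summed over the 18, the level was 966 and 1057 CPM in controls and 992 and 1099 CPM in *Cnot3*-cKO cells, and the groups overlapped.

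None of the 5 enzymes from acetyl-CoA to mevalonate and its first phosphorylated products passed in edgeR or in DESeq2, and at an unadjusted p under 0.05 there was 1 higher and 2 lower. *Hmgcs1*, which makes HMG-CoA, was the most abundant enzyme per length, at 43.2 CPM per kb of exon in controls. It was at 190 and 207 CPM in controls and at 218 and 246 CPM in *Cnot3*-cKO cells (log2 fold change 0.23, edgeR adjusted p = 0.0973). Without control replicate 2, *Hmgcs1* passed (log2 fold change 0.28, edgeR adjusted p = 0.00895). It did not without control replicate 1 (0.15, edgeR adjusted p = 0.207), without *Cnot3*-cKO replicate 1 (0.30, edgeR adjusted p = 0.147) or without *Cnot3*-cKO replicate 2 (0.13, edgeR adjusted p = 0.607). *Acat2* and *Mvd*, at the start and the end of this stretch, had the lower *Cnot3*-cKO values, with log2 fold changes of -0.35 and -0.42 and edgeR adjusted p of 0.0466 and 0.0834. Without control replicate 1 both passed, with *Mvd* at -0.65 (edgeR adjusted p = 7.27e-05) and *Acat2* at -0.45 (edgeR adjusted p = 0.00158). Without control replicate 2 neither did, with *Mvd* at -0.19 (edgeR adjusted p = 0.461) and *Acat2* at -0.26 (edgeR adjusted p = 0.125). Leaving out either *Cnot3*-cKO library also left both short of the threshold, with edgeR adjusted p of 0.323 and 0.0326 for *Mvd* and of 0.0727 and 0.302 for *Acat2*. *Acat2* shares 1477 bases at 97.7% identity with *Acat3*, which held 85 to 175 reads, and 445 bases at 98.7% identity with *Tcp1*, which held 17029 to 32896 reads, so the count of *Acat2* is uncertain. The kinases *Mvk* and *Pmvk* stayed at 16.9 CPM or less in every library and overlapped between groups.

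The isoprenoid enzymes *Idi1* and *Fdps* overlapped between groups, with log2 fold changes of -0.19 and -0.01. Neither passed in edgeR or DESeq2, and neither had an unadjusted p under 0.05. *Idi1* matches a processed pseudogene, *Gm13502*, over 684 bases at 100% identity, and that row held 352 to 761 reads beside 284 to 674 for *Idi1*.

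*Fdft1* encodes squalene synthase, the first enzyme committed to sterols, and lies on chromosome 14 from 63145150 to 63179578 (reverse strand). It was at 112 and 119 CPM in controls and at 169 and 175 CPM in *Cnot3*-cKO cells. Both *Cnot3*-cKO libraries were far above both controls. The rise was 1.49-fold (log2 fold change 0.57, standard error 0.09, 95% interval 0.38 to 0.76, edgeR adjusted p = 6.93e-04). Among the reads of the 18 enzymes, *Fdft1* took 11.6% and 11.3% in controls, against 17.0% and 16.0% in *Cnot3*-cKO cells. The exons of *Fdft1* share 774 bases, 18.3% of their length, with *Ctsb* on the opposite strand, and how strand was used in counting is not stated. *Ctsb*, a lysosomal protease, had a log2 fold change of 0.27 (edgeR adjusted p = 0.0406), and its part in the *Fdft1* value was not tested. A processed pseudogene, *Gm6781*, matches *Fdft1* over 1249 bases at 97.4% identity and held 178 to 269 reads.

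The 2 enzymes that follow *Fdft1* in the route did not pass the test. *Sqle*, squalene epoxidase, was at 88.5 and 102 CPM in controls and at 78.8 and 84.1 CPM in *Cnot3*-cKO cells (log2 fold change -0.22, edgeR adjusted p = 0.149), and it passed as lower without control replicate 1 (-0.33, edgeR adjusted p = 0.00823). It did not pass without control replicate 2 (-0.13, edgeR adjusted p = 0.473) or without *Cnot3*-cKO replicate 1 or replicate 2 (edgeR adjusted p = 0.509 and 0.255). *Lss*, lanosterol synthase, was at 85.9 and 93.2 CPM in controls and at 84.7 and 95.7 CPM in *Cnot3*-cKO cells (log2 fold change 0.01, 95% interval -0.21 to 0.23). *Sqle* thus lay lower in both *Cnot3*-cKO libraries, while *Lss* overlapped between groups.

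From lanosterol to cholesterol there were 8 enzymes, of which *Ebp* rose, *Dhcr7* fell and 6 did not pass. *Ebp*, the isomerase that moves a double bond in the sterol ring, lies on the X chromosome from 8185329 to 8193512 (reverse strand). It was at 3.55 and 3.35 CPM in controls and at 6.49 and 8.14 CPM in *Cnot3*-cKO cells. The groups were well apart, but these levels rest on only 143, 141, 147 and 233 reads. The rise was 2.12-fold (log2 fold change 1.09, standard error 0.24, 95% interval 0.57 to 1.60, edgeR adjusted p = 0.00684). Without *Cnot3*-cKO replicate 2 the log2 fold change of *Ebp* was 0.91 and it no longer passed (edgeR adjusted p = 0.0413), nor did it with all libraries thinned to the smallest total (0.90, edgeR adjusted p = 0.0181).

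*Dhcr7*, 7-dehydrocholesterol reductase, makes cholesterol itself in the last step of one branch and lies on chromosome 7 from 143823145 to 143848410 (forward strand). It was at 57.7 and 50.8 CPM in controls and at 32.4 and 32.8 CPM in *Cnot3*-cKO cells. Both *Cnot3*-cKO libraries were nearly equal and below both controls. The log2 fold change was -0.74 (standard error 0.12, 95% interval -0.99 to -0.48, edgeR adjusted p = 9.34e-04). Of the reads of the 18 enzymes, *Dhcr7* took 5.97% and 4.81% in controls, against 3.26% and 2.98% in *Cnot3*-cKO cells. *Ebp* and *Dhcr7* act near the end of the same route and moved in opposite directions.

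Among the other 6 enzymes of this stretch, *Msmo1*, which removes methyl groups from the sterol ring, came closest from above. It was at 64.9 and 69.3 CPM in controls and at 81.7 and 97.3 CPM in *Cnot3*-cKO cells (log2 fold change 0.42, edgeR adjusted p = 0.0167). Under 10 of 15 alternatives, a looser threshold included, *Msmo1* passed as higher, DESeq2 (adjusted p = 0.00851) among them. Leaving out control replicate 1 or control replicate 2 gave edgeR adjusted p of 0.00716 and 8.30e-04. Without *Cnot3*-cKO replicate 2 it was at 0.28 and did not pass (edgeR adjusted p = 0.258), and without *Cnot3*-cKO replicate 1 it was at 0.53 and fell just short (edgeR adjusted p = 0.0101).

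*Cyp51*, the lanosterol demethylase, was at 73.5 and 83.7 CPM in controls and at 55.6 and 65.9 CPM in *Cnot3*-cKO cells (log2 fold change -0.37, edgeR adjusted p = 0.0382). The groups did not overlap, and *Cyp51* passed as lower without control replicate 1 (-0.48, edgeR adjusted p = 2.86e-04). It did not pass without control replicate 2 (-0.28, edgeR adjusted p = 0.0699), without *Cnot3*-cKO replicate 1 (-0.26, edgeR adjusted p = 0.318) or without *Cnot3*-cKO replicate 2 (-0.50, edgeR adjusted p = 0.0237). *Nsdhl*, *Hsd17b7*, *Sc5d* and *Tm7sf2*, which carry out other steps of the same route, had log2 fold changes of -0.18, -0.13, 0.13 and 0.10 and edgeR adjusted p from 0.382 to 0.880. *Tm7sf2* had the lowest level of all members per length, at 0.656 CPM per kb in controls, and was too shallowly read to show a small difference (95% interval -0.59 to 0.78). *Tm7sf2* shares 532 exon bases with *Vps51* on the same strand, and *Cyp51* shares 166 with *Akap9* on the other, so reads in these stretches may belong to either gene.

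Of the 4 genes for uptake and transport within the cell, *Stard4* fell and 3 did not pass. *Stard4*, a soluble protein that carries cholesterol between membranes, lies on chromosome 18 from 33199355 to 33213862 (reverse strand). It was at 85.3 and 80.7 CPM in controls and at 56.7 and 63.8 CPM in *Cnot3*-cKO cells. Both *Cnot3*-cKO libraries lay below both controls, though they differed between themselves more than the controls did. The log2 fold change was -0.46 (standard error 0.10, 95% interval -0.69 to -0.24, edgeR adjusted p = 0.00755). Without *Cnot3*-cKO replicate 1 it was -0.39 (edgeR adjusted p = 0.0967) and without *Cnot3*-cKO replicate 2 -0.55 (edgeR adjusted p = 0.0103), and 3 other scalings also left it short of the threshold.

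*Npc1* and *Npc2*, which move cholesterol out of late endosomes and lysosomes, had log2 fold changes of -0.19 and -0.18 (edgeR adjusted p = 0.182 and 0.246), with both *Cnot3*-cKO libraries below both controls. *Scarb1*, the receptor for high-density lipoprotein, had a log2 fold change of 0.15 (edgeR adjusted p = 0.383), with both *Cnot3*-cKO libraries above. These 3 differences are smaller than the test can tell from the spread between libraries.

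*Soat1*, which esterifies cholesterol for storage, lies on chromosome 1 from 156424525 to 156474331 (reverse strand) and had the smallest adjusted p among the members that rose. It was at 89.5 and 84.3 CPM in controls and at 160 and 140 CPM in *Cnot3*-cKO cells. Both *Cnot3*-cKO libraries were well above both controls, and the raw reads (3603, 3548, 3629 and 3999) were already higher in the shallower *Cnot3*-cKO libraries. The rise was 1.72-fold (log2 fold change 0.79, standard error 0.10, 95% interval 0.58 to 1.0, edgeR adjusted p = 1.85e-04). Of the reads of the 30 members, *Soat1* took 2.83% and 2.76% in controls, against 5.39% and 4.54% in *Cnot3*-cKO cells.

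The exporters did not pass. *Abca1*, which loads cholesterol onto apolipoprotein A-I, had the highest level of all members per length, at 96.4 CPM per kb in controls and 95.3 in *Cnot3*-cKO cells. Its controls averaged 999 ± 173 CPM (SD, n = 2) and its *Cnot3*-cKO libraries 988 ± 18.9 CPM (SD, n = 2), and both *Cnot3*-cKO libraries lay between the controls (log2 fold change -0.02, 95% interval -0.23 to 0.20). *Abcg1*, which exports to high-density lipoprotein, had a log2 fold change of 0.07 (95% interval -0.14 to 0.29). *Insig1*, at 62.4 CPM per kb in controls, came next after *Abca1* per length, then *Hmgcs1* at 43.2 and *Fdft1* at 27.4, and in *Cnot3*-cKO cells *Srebf2* went from 23.2 to 14.3 CPM per kb. The groups of *Insig1* and *Abca1* stood clear of each other per length, while *Fdft1* and *Acat2* (25.6) overlapped in controls.

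**Figure D3:**
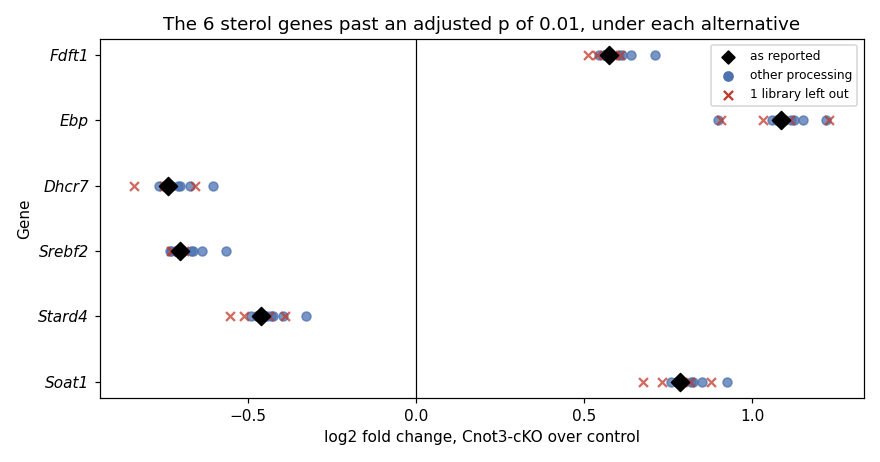
Log2 fold change of the 6 sterol genes past an adjusted p of 0.01, as reported (black diamonds), under other processing (blue circles) and with 1 library left out (red crosses). Each gene stays on its side of 0, from -0.84 to -0.60 for *Dhcr7* and from 0.67 to 0.92 for *Soat1*.

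*Soat1* is also known as an enzyme of macrophages and of steroid-making cells, and markers of somatic cells moved in the same direction as the 3 members that rose. The 14 Sertoli cell markers summed to 419 and 432 CPM in controls and 1265 and 1252 CPM in *Cnot3*-cKO cells. *Sox9* was at 3.80 and 3.64 against 18.8 and 16.1 CPM, and *Amh* at 3.10 and 3.16 against 18.3 and 20.2 CPM. *Clu*, the most abundant of the list in *Cnot3*-cKO cells, was at 152 and 145 against 479 and 479 CPM. *Ctsl*, the most abundant in controls by the mean, was at 144 and 168 against 387 and 343 CPM. The groups did not overlap in any of these, or in the Leydig and macrophage lists.

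The Leydig cell list summed to 368 and 322 CPM in controls and 831 and 896 CPM in *Cnot3*-cKO cells, with *Insl3* at 0 reads in every library, *Cyp11a1* at 50.4 and 50.1 against 116 and 115 CPM and *Hsd3b1*, the most abundant, at 287 and 248 against 656 and 712 CPM. The 9 macrophage markers summed to 236 and 145 CPM in controls, and 537 and 442 CPM in *Cnot3*-cKO cells, with *Adgre1* at 19.5 and 13.1 against 36.3 and 31.9 CPM and *Mrc1*, the most abundant, at 96.8 and 55.2 against 218 and 180 CPM. Of 5 endothelial markers 2 were higher and of 5 peritubular myoid markers 1 was. The 12 pan-germ cell genes had a median log2 fold change of -0.03, with 1 higher and 2 lower. They summed to 6236 and 6699 CPM in controls and 5762.5 and 5991 CPM in *Cnot3*-cKO cells. Both *Cnot3*-cKO libraries lay below both controls in 4 of these genes and above in 3, and 5 overlapped. The 9 genes of undifferentiated spermatogonia had 4 higher, *Gfra1* among them (log2 fold change 0.90), and 2 lower. *Id4*, whose eGfp allele was used for the sort, was also among the 4 higher (log2 fold change 1.04, edgeR adjusted p = 4.05e-04). It was named after its value was seen. The 2 lower, named after their values were seen, were *Zbtb16* (-0.82, edgeR adjusted p = 1.93e-04) and *Sall4* (-0.42, edgeR adjusted p = 0.00656), both transcription factors of undifferentiated spermatogonia. The part of these somatic markers in the rises of *Soat1*, *Fdft1* and *Ebp* was not tested.

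Outside the 30 members, the median log2 fold change of the rest of the pathway differed between branches. Of 15 other genes of sterol synthesis and SREBP control, 0 passed as higher and 3 as lower in edgeR, and 0 and 4 in DESeq2. At an unadjusted p under 0.05, 1 was higher and 10 lower, and the median log2 fold change was -0.30. Over all tested genes, edgeR passed 6.21% as higher and 4.70% as lower, and DESeq2 passed 1726 genes as higher and 1607 as lower. An unadjusted p under 0.05 was reached by 17.4% as higher and 15.4% as lower. *Mbtps1*, the site-1 protease that makes the first cut in SREBPs, had a log2 fold change of -0.46 (edgeR adjusted p = 0.00161), and *Erlin1*, an endoplasmic reticulum protein linked to sterol control, one of -0.66 (edgeR adjusted p = 4.50e-04). Without *Cnot3*-cKO replicate 2, *Mbtps1* no longer passed (-0.44, edgeR adjusted p = 0.0224), nor did it with libraries scaled to germ cell genes (-0.32, edgeR adjusted p = 0.0317). *Dhcr7*, *Srebf2* and *Mbtps1* were lower in both *Cnot3*-cKO libraries than in either control.

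The isoprenoid branch, which leads from the same precursors to dolichol, ubiquinone and protein prenylation, had 9 of 9 genes below 0 and a median log2 fold change of -0.44. Over all 23952 tested genes, 11787 were below 0. *Nus1*, a subunit of the dolichol-making enzyme, fell (log2 fold change -0.66, edgeR adjusted p = 0.00260) and 8 did not pass. With libraries scaled to germ cell genes *Nus1* did not pass (-0.53, edgeR adjusted p = 0.0172). There were 0 higher by edgeR and by DESeq2, 3 lower by DESeq2, and 0 higher and 5 lower at an unadjusted p under 0.05. Of all tested genes, 4.70% passed as lower in edgeR, 1607 did in DESeq2, and 15.4% were lower at that unadjusted p.

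Genes of uptake, transport and export outside the members lay mostly on the other side. Of 27 tested, 6 passed as higher and 1 as lower, beside 6.21% and 4.70% of all tested genes. The median stood at 0.45 on the log2 scale. *Star*, 1 of the 6, is also counted in the Leydig cell list. *Apoe*, the apolipoprotein of tissue cholesterol traffic, was at 68.7 and 46.5 CPM in controls and at 193 and 171 CPM in *Cnot3*-cKO cells (log2 fold change 1.66, edgeR adjusted p = 1.70e-05). *Cd36*, a scavenger receptor, *Gramd1b*, a carrier of cholesterol from the plasma membrane, and *Lipa*, the lysosomal acid lipase, had log2 fold changes of 1.30, 1.12 and 1.01. The 1 lower gene, named after its value was seen, was *Lrp8*, an apolipoprotein E receptor, at 31.7 and 35.9 CPM in controls and 15.8 and 18.6 CPM in *Cnot3*-cKO cells (log2 fold change -0.97, edgeR adjusted p = 6.62e-04). *Apoe*, *Cd36* and *Lipa* are known as genes of macrophages among other cells, and the 9 macrophage markers were higher beside them, with a median log2 fold change of 1.39. The part of macrophages in these 3 values was not tested.

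Fatty acid genes driven by SREBPs were mixed, with 3 of 14 higher, 2 lower and a median of 0.23 on the log2 scale. The shares over all tested genes were 6.21% higher and 4.70% lower. *Me1* (1.18, edgeR adjusted p = 6.18e-06), which supplies NADPH, *Scd2* (0.76, edgeR adjusted p = 2.52e-04), a desaturase, and *Mid1ip1* (1.07, edgeR adjusted p = 0.00658), a partner of acetyl-CoA carboxylase, rose on the log2 scale. *Acaca*, that carboxylase, fell (-0.38, edgeR adjusted p = 0.00677). Without control replicate 1, *Mid1ip1* was at 0.84 with an edgeR adjusted p of 0.0126, and without either *Cnot3*-cKO library *Acaca* no longer passed (edgeR adjusted p = 0.0304 and 0.0819). Nor did *Acaca* pass with upper quartile scaling (-0.34, edgeR adjusted p = 0.0207), with library size only (-0.31, edgeR adjusted p = 0.0194) or with germ cell scaling (-0.24, edgeR adjusted p = 0.128). After thinning, *Mid1ip1* was at 1.03 and fell just short (edgeR adjusted p = 0.0107).

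**Figure D4:**
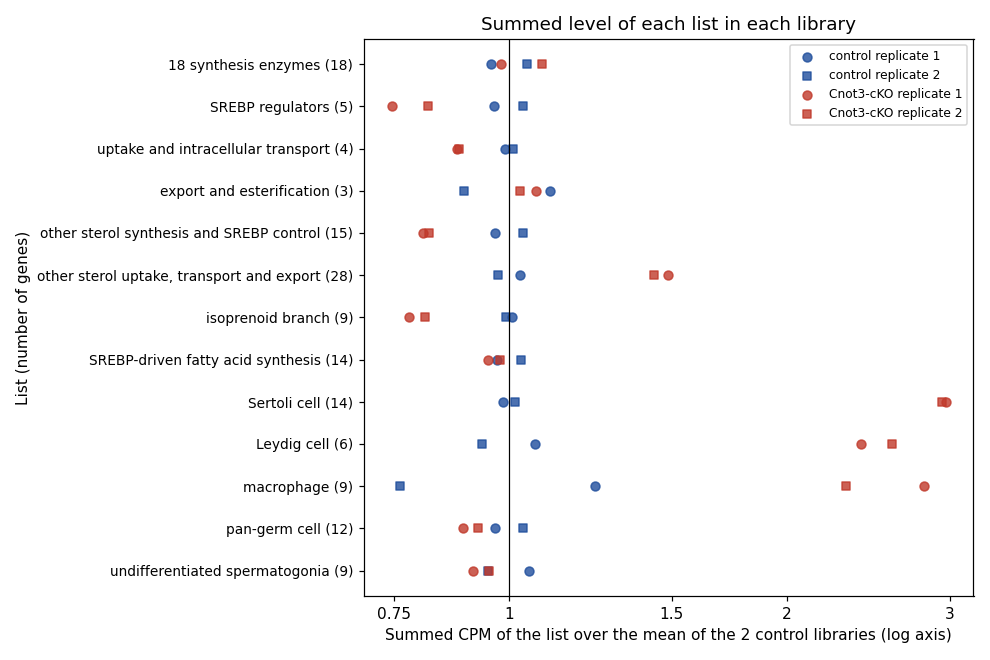
Summed CPM of each list in each library, divided by the mean of the 2 control libraries (log axis), with the number of genes in brackets. The SREBP regulators, the isoprenoid branch and other sterol synthesis and SREBP control lie below both controls in both Cnot3-cKO libraries. So do uptake and intracellular transport and the pan-germ cell list. The 18 synthesis enzymes overlap with controls, and in Cnot3-cKO cells the Sertoli, Leydig and macrophage lists lie above 2.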

How the data were processed

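Bulk RNA-seq libraries of ID4-EGFP+ cells from P8 testis, 2 control and 2 *Cnot3*-cKO, were analysed. The deposited values are raw read counts per gene symbol. The authors aligned reads to mm10 with STAR and counted them on GENCODE genes with featureCounts. How strand and multi-mapping reads were treated is not given in the sources used here. Totals were 22192964 to 43378493 reads, and counting error is smallest for deeply read genes.

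*Cnot3*-cKO was compared with control by the quasi-likelihood test of edgeR 4.0.16 (R 4.3.3) after the default expression filter and TMM scaling, with Benjamini-Hochberg adjustment over 23952 genes. Past the test means an adjusted p under 0.01, and called means a fold above 2 as well, which are the study's thresholds. The biological coefficient of variation was 0.145. The members and lists were chosen with earlier results of these data known. Named genes were *Cnot3*, all members, at most 4 genes per pathway list past the test, and fixed markers. Alternatives were 4 other scalings, 2 other filters, a robust fit, a replicate block, DESeq2 1.42.0, an adjusted p under 0.05, thinning and leaving out each library. Exon lengths, overlaps and copies came from the GENCODE M21 annotation of GRCm38 and BLAST 2.17.0 (at least 400 bases at 95% identity). The procedure was tested on simulated data.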

Additional observations from a re-analysis of the deposited data

How the results depend on the processing

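The 15 alternatives gave 399 values for members that kept direction and side of the threshold, 22 that passed where the reported value had not, 7 that no longer passed (*Stard4* 5, *Ebp* 2) and 22 that changed sign. *Srebf2*, *Dhcr7*, *Soat1* and *Fdft1* kept direction and call under all 15. The causes of the differences below were not tested.

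Scaling to germ cell genes moved the median log2 fold change of all genes to 0.15, beside which the members' median was -0.033. With library size only the members' median was -0.11. Germ cell scaling left 97 genes called lower and 412 past the adjusted p as lower. Without a filter these were 285 and 2006, with 5 members lower. With the threshold at 0.05, the fold limit left 1452 genes higher and 284 lower, and 2659 were past it as higher and 2266 as lower, 6 members among the latter. After thinning, 0 members were called higher.

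Leaving out 1 library gave 0 to 1 members called higher, 2 to 5 past the adjusted p as higher, 2 to 9 as lower and a members' median from -0.21 to -0.066. Over all genes it gave 217 to 271 called lower and 792 to 2286 past the adjusted p as lower. With 1 library in a group, that library is assumed to vary like the others.

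The sign changes were in genes that passed no test. *Lss* was at -0.0014 with RLE scaling and with DESeq2 and at -0.017 without a filter. *Fdps* and *Abca1* were at 0.034 and 0.019 with upper quartile scaling, 0.060 and 0.048 with library size only, 0.13 and 0.12 with germ cell scaling and 0.026 and 0.014 with a mean count of at least 50. *Hsd17b7* was at 0.0015 with germ cell scaling and *Tm7sf2* at -0.065 after thinning. Leaving out 1 library gave -0.58 to 0.11 for *Mvk*, -0.13 to 0.089 for *Fdps*, -0.086 to 0.086 for *Lss*, -0.20 to 0.44 for *Tm7sf2*, -0.36 to 0.044 for *Hsd17b7* and -0.19 to 0.16 for *Abca1*.

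A replicate block gave 4 members past the adjusted p as higher and 3 as lower. Replicate numbers are shared by the groups in name only: deviations of replicate 1 correlated at r = 0.0642 over 16437 genes. Depth limits *Tm7sf2*, *Ebp* and *Pmvk*, read 62 to 277 times per library.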
